A study of Nicotiana tabacum with 9 samples.

Results

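Leaf transcripts of cigar tobacco seedlings grown at 200 µmol m-2 s-1 (light 200) were compared with those of seedlings grown at 50 µmol m-2 s-1 (light 50), the highest and the lowest light intensity of the study, over all 123 genes of the deposited expression table. The plants were the cigar variety H382 of Nicotiana tabacum, an allotetraploid, and leaves were taken at the seedling stage. Each group had 3 biological replicates with 1 library each. A further 3 libraries at 100 µmol m-2 s-1 (light 100) entered the fit only to estimate the spread. Apart from light intensity the labels give both groups the same variety, tissue and stage, and they do not say how long the plants grew at each intensity or whether a replicate held leaves of several plants. The question is which leaf transcripts differ across the full light range.

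Leaves adjust the balance between light capture and carbon use to the light they grow in. Antenna proteins carry chlorophyll and pass excitation to the photosystems, and low-light leaves are known to invest more in them. Phenylpropanoid and flavonoid enzymes make pigments and sunscreens that accumulate in strong light. The starch pathway stores carbon fixed in excess of immediate need, and carotenoid epoxidation supplies the precursors of the hormone abscisic acid. The table also holds genes of transport, sulfur metabolism, proteolysis and the cell wall, which take up most of the account here.

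The table is not a sample of the genome. The authors' deposited table marks 122 of its 123 genes as changed between light 50 and light 200. It is in effect a list of genes already found changed in the comparison described here. The rule and threshold behind the choice of genes are not stated. Tested with edgeR's quasi-likelihood F test, adjusted by Benjamini-Hochberg, 58 genes were higher at light 200 (47.2% of the table) and 64 were lower (52.0%), 122 in either direction (99.2%). These counts and p-values therefore describe size and spread and are not independent evidence of a light response. Product names come from the best Swiss-Prot match for 115 genes, of which 10 are Nicotiana tabacum entries, and from the KEGG annotation for the other 8. A name borrowed from another species gives a likely family and not a proven function. Reads of near-identical copies, frequent in an allotetraploid, cannot be placed on 1 copy with certainty, and the library kit does not mark strand.

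Library totals at light 200 were 15022764, 14253291 and 16061435 reads, and those at light 50 were 12395758, 15374035 and 14939891 reads. Levels are given as RPM, reads per 1000000 reads of that total, and FPKM, which also divides by gene length, is used where genes are compared with each other. Counts per gene and library ran from 8 to 136456 across the series. Libraries of the same group differed from each other by more than counting error. The leaf label could be checked only within the chosen genes. Photosystem II and antenna genes were the most abundant, with class medians of 2330.2 and 1887 FPKM at light 200, against 3237 and 3026 FPKM at light 50. Of lists that mark dividing tissue, nicotine synthesis and trichomes the table held only a beta-tubulin, a berberine bridge enzyme-like and a lipid-transfer entry, which are described with their classes. In bulk leaf RNA, fewer cells of a type and less RNA per cell cannot be told apart.

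The 2 directions differed in size and in level. Genes that rose had a median log2 change of 1.42, and 45 of the 58 changed at least 2-fold and 15 at least 4-fold. Genes that fell had a median of -0.80, with 25 of the 64 at least 2-fold and 6 at least 4-fold lower. Genes that fell were the more abundant, with a median of 153 FPKM over both groups against 59.99 FPKM for genes that rose. Names containing the word chloroplastic made up 34 of the 64 that fell and 12 of the 58 that rose. The libraries of the 2 groups did not overlap for 120 of the 123 genes, 58 higher at light 200 (47.2%) and 62 lower (50.4%).

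For the 3 genes with overlapping libraries the call depended on the setting. DRT100 (Nitab4.5_0000213g0030, Nt04, 94083019 to 94084440), named for DNA damage tolerance, was the only gene not called. Its libraries held 29.2, 26.4 and 20.1 RPM at light 200, against 23.6, 20.9 and 17.3 at light 50. Its log2 change was 0.29 ± 0.18 (SE). It was called higher with TMM factors (adjusted p = 0.0072), RLE factors (adjusted p = 0.0423) and the median change set to 0 (adjusted p = 0.00316). Leaving out light 200 replicate 3 also gave a call (adjusted p = 0.0297). Leaving out any other library did not, with adjusted p up to 0.394. DESeq2 and the authors' size factors also left DRT100 uncalled. Tetraspanin-8 (Nitab4.5_0002587g0080), a membrane protein, fell to 30.3 RPM at light 200, against 52.2 at light 50, and was not called with TMM factors (adjusted p = 0.115). Protease Do-like 8 (Nitab4.5_0000274g0150), which in Arabidopsis takes part in the repair of photosystem II, had 7.46, 6.88 and 11.6 RPM at light 200, against 11.3, 14.1 and 14.3 at light 50. Its log2 change was -0.61 ± 0.22 (SE), and it was not called with TMM factors (adjusted p = 0.239) or without light 200 replicate 1 or 2 or light 50 replicate 2 or 3 (adjusted p from 0.0548 to 0.0857).

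**Figure D1:**
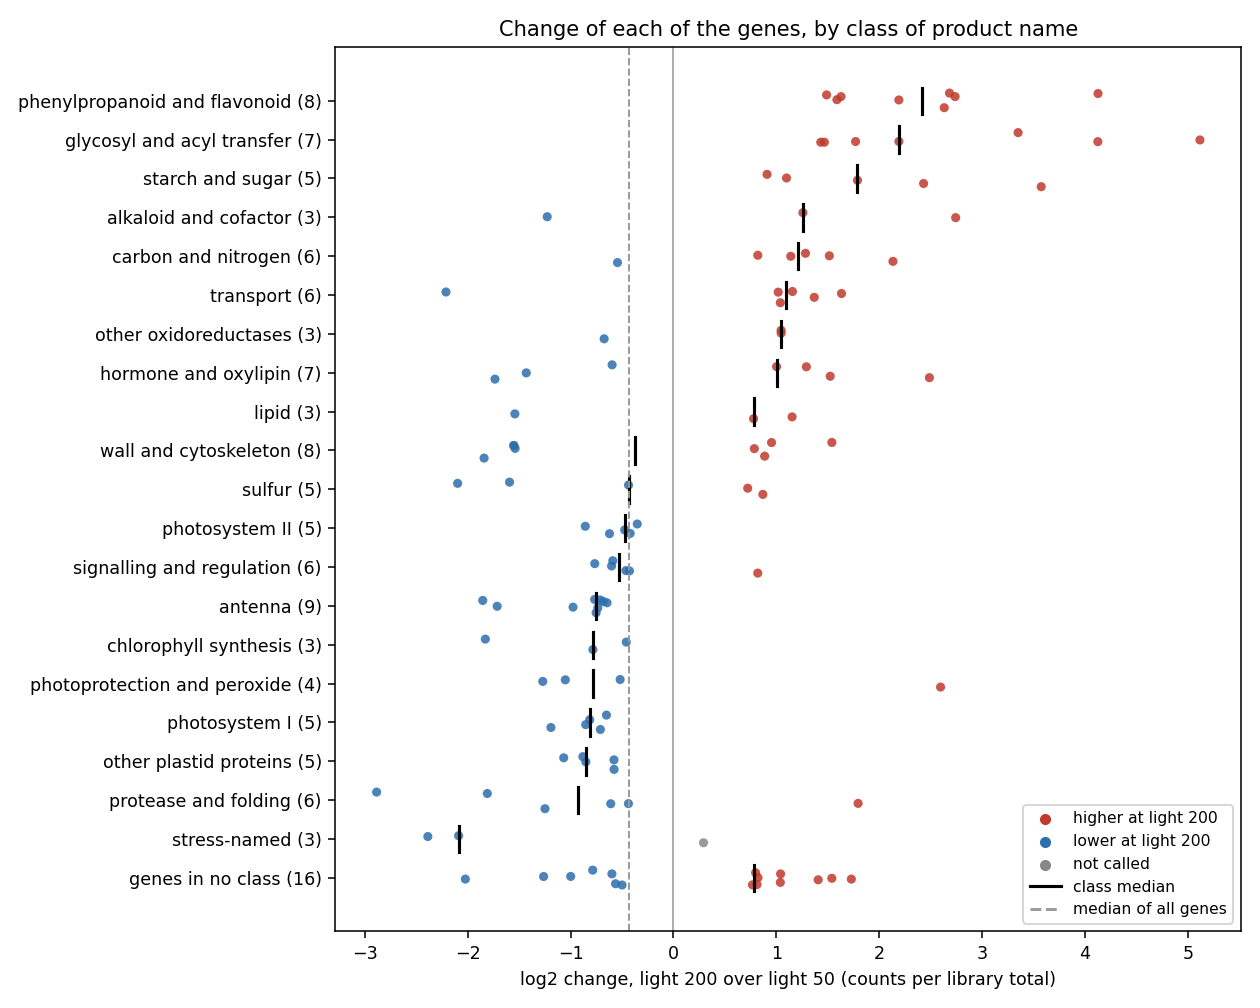
Log2 change at light 200 over light 50 for each of the 123 genes (points, horizontal axis), in rows by class of product name with the number of genes, with class medians as black bars and the median of all genes, -0.43, as a dashed line. Phenylpropanoid, transferase and starch genes lie wholly to the right and antenna, photosystem and protochlorophyllide reductase genes wholly to the left. Wall, sulfur, hormone and transport genes lie on both sides. The row of other plastid proteins, also wholly to the left, was formed after values were seen, and genes named chloroplastic that rose stand in other rows.

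Genes named for starch metabolism were higher at light 200. This held for all 5 genes of the starch and sugar class, against 47.2% of the table called higher. Their median log2 change was 1.79, against -0.43 over all genes of the table. By name words alone the class held 3 of them, all higher. DPE2 and LSF1, the members tied below to starch breakdown, were added after their values were seen. The largest change was that of the gene Nitab4.5_0000308g0330, Nt19, 76942735 to 76946994, named for the large subunit 1 of glucose-1-phosphate adenylyltransferase, whose product ADP-glucose is the substrate of starch synthases. The libraries gave 631, 542 and 469 RPM at light 200, against 53.2, 44.8 and 39.9 at light 50. The lowest library at light 200 was above the highest at light 50, and the fold change was 11.9, a log2 change of 3.57 ± 0.20 (SE) with adjusted p = 1.02e-07.

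It was followed by Nitab4.5_0002980g0050, Nt03, 90247218 to 90253959, named for granule-bound starch synthase 2, which extends glucan chains. Its level was 305, 289 and 196 RPM at light 200, against 57.3, 44.8 and 44.3 at light 50. The alpha-1,4 glucan phosphorylase L-1 isozyme (Nitab4.5_0000154g0300, Nt14, 87040991 to 87050128), a plastid enzyme that adds or removes glucose at chain ends, gained more reads than any other gene of the table. Its values were 871, 754 and 876 RPM at light 200, against 281, 240.1 and 203 at light 50. Its log2 change was 1.79 ± 0.14 (SE). Smaller rises were those of 4-alpha-glucanotransferase DPE2 (Nitab4.5_0001388g0020), which in Arabidopsis handles maltose released from starch at night, and phosphoglucan phosphatase LSF1 (Nitab4.5_0004348g0040), which in Arabidopsis is needed for normal starch breakdown. DPE2 averaged 40.2 ± 4.89 RPM at light 200 and 18.7 ± 1.09 at light 50 (SD, n = 3 each), and LSF1 averaged 63.1 ± 3.31 at light 200 and 33.6 ± 1.14 at light 50.

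Around the starch enzymes, 5 of the 6 genes of the carbon and nitrogen class rose, against 47.2% of the table called higher. That class was formed on name words and also took in a leucine synthesis gene and an aspartate racemase. Its only carbon fixation gene fell. Pyruvate kinase isozyme A (Nitab4.5_0000772g0060) and glyceraldehyde-3-phosphate dehydrogenase GAPCP2 (Nitab4.5_0003777g0020), both plastid glycolytic enzymes by name, rose 2.85-fold and 2.205-fold. The gene named for 2-isopropylmalate synthase A (Nitab4.5_0000122g0020), the entry enzyme of leucine synthesis, had 30.4, 23.4 and 24.2 RPM at light 200, against 13.5, 8.26 and 10.4 at light 50. An aspartate racemase (Nitab4.5_0002257g0010, Nt04, 20697250 to 20699327), named from an archaeal protein, had the largest rise of the class. It had 20.2, 19.6 and 15.4 RPM at light 200, against 4.68, 4.49 and 3.41 at light 50. Glutamine synthetase (Nitab4.5_0001650g0160), which binds ammonium to glutamate, had a log2 change of 0.82 ± 0.19 (SE). The member that fell was Rubisco activase 1 (Nitab4.5_0004475g0020), which frees blocked Rubisco sites, with 37.2 ± 1.88 RPM at light 200 and 54.2 ± 0.991 at light 50 (SD, n = 3 each). It was not called with TMM factors (adjusted p = 0.0787).

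Cofactor and dehydrogenase genes changed as well. Nudix hydrolase 19 (Nitab4.5_0000106g0230, Nt22, 42710710 to 42716976), which splits the pyridine dinucleotides in Arabidopsis, rose 2.39-fold. Its libraries held 100.1, 113 and 128 RPM at light 200, against 53.4, 46.96 and 42.3 at light 50. Nicotinamidase 2 (Nitab4.5_0000069g0350), which turns nicotinamide into nicotinic acid in the salvage of the same cofactors, fell to 5.37 RPM at light 200, against 12.6 at light 50. Alcohol dehydrogenase 1 (Nitab4.5_0000270g0270) and betaine aldehyde dehydrogenase 1 (Nitab4.5_0002101g0060), the latter only by name an enzyme of glycine betaine synthesis, both had log2 changes of 1.05. Sorbitol dehydrogenase (Nitab4.5_0001146g0200) averaged 155 ± 11.4 RPM at light 200 and 248 ± 50.3 at light 50 (SD, n = 3 each), and it was not called with the median change set to 0 (adjusted p = 0.167).

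Transporters rose in 5 of 6 genes (6 of 7 by name words alone), against 47.2% of the table called higher. The class median log2 change was 1.10. The 2 plasma membrane aquaporins, which conduct water, were PIP1-2 (Nitab4.5_0000737g0120, Nt04, 88688582 to 88690152) and PIP2-1 (Nitab4.5_0000101g0120). PIP1-2 had 139, 175 and 130.2 RPM at light 200, against 50.9, 45.7 and 46.9 at light 50. PIP2-1 had 117, 117 and 87.9 RPM at light 200, against 44.6, 54.4 and 57.3 at light 50. The probable chloroplast sodium and metabolite cotransporters BASS1 (Nitab4.5_0000667g0060) and BASS3 (Nitab4.5_0000038g0160) rose 2.58-fold and 2.23-fold. ABC transporter C family member 14 (Nitab4.5_0002469g0080), of a family that moves conjugated compounds, averaged 397 ± 26.9 RPM at light 200 and 196 ± 9.74 at light 50 (SD, n = 3 each). The exception was CSC1-like protein ERD4 (Nitab4.5_0000315g0120, Nt15, 92649958 to 92656772), of a family of channels that open on osmotic or mechanical stress. The libraries gave 22.03, 25.5 and 62.2 RPM at light 200, against 160.1, 222 and 127 at light 50. Light 200 replicate 3 stood above the other 2 libraries of its group, and without it the log2 change was -2.83 in place of -2.21.

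Of 5 sulfur genes 2 rose and 3 fell. The sulfate transporter 3.1 (Nitab4.5_0000678g0050) and the sulfite exporter TauE/SafE family protein 3 (Nitab4.5_0000052g0160) rose, with log2 changes of 0.87 ± 0.17 (SE) and 0.72 ± 0.14 (SE). The 3 that fell are enzymes by name. Among them was Nitab4.5_0000583g0180, Nt19, 96394531 to 96399644, named for bifunctional L-3-cyanoalanine synthase/cysteine synthase 2, which detoxifies cyanide in mitochondria. Its level was 28.7, 35.9 and 27.02 RPM at light 200, against 91.2, 108 and 77.2 at light 50. Thiosulfate sulfurtransferase 16 (Nitab4.5_0001696g0140, Nt17, 202729575 to 202731104), which transfers sulfur between small molecules, varied most among the light 200 libraries of any gene of the table, with a coefficient of variation of 84.1%. Its values were 48.5, 69.8 and 225 RPM at light 200, against 662, 496 and 312 at light 50. Light 200 replicate 3 stood far above the other libraries of its group, though still below every light 50 library. The log2 change was -2.10 ± 0.50 (SE), and -3.05 ± 0.36 without that library. The plastid cysteine synthase (Nitab4.5_0000013g0360) averaged 359 ± 51.5 RPM at light 200 and 486 ± 41.1 at light 50 (SD, n = 3 each), and it was not called with TMM factors (adjusted p = 0.281) or with the median change set to 0, where its log2 change was -0.01 (adjusted p = 0.958).

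**Figure D2:**
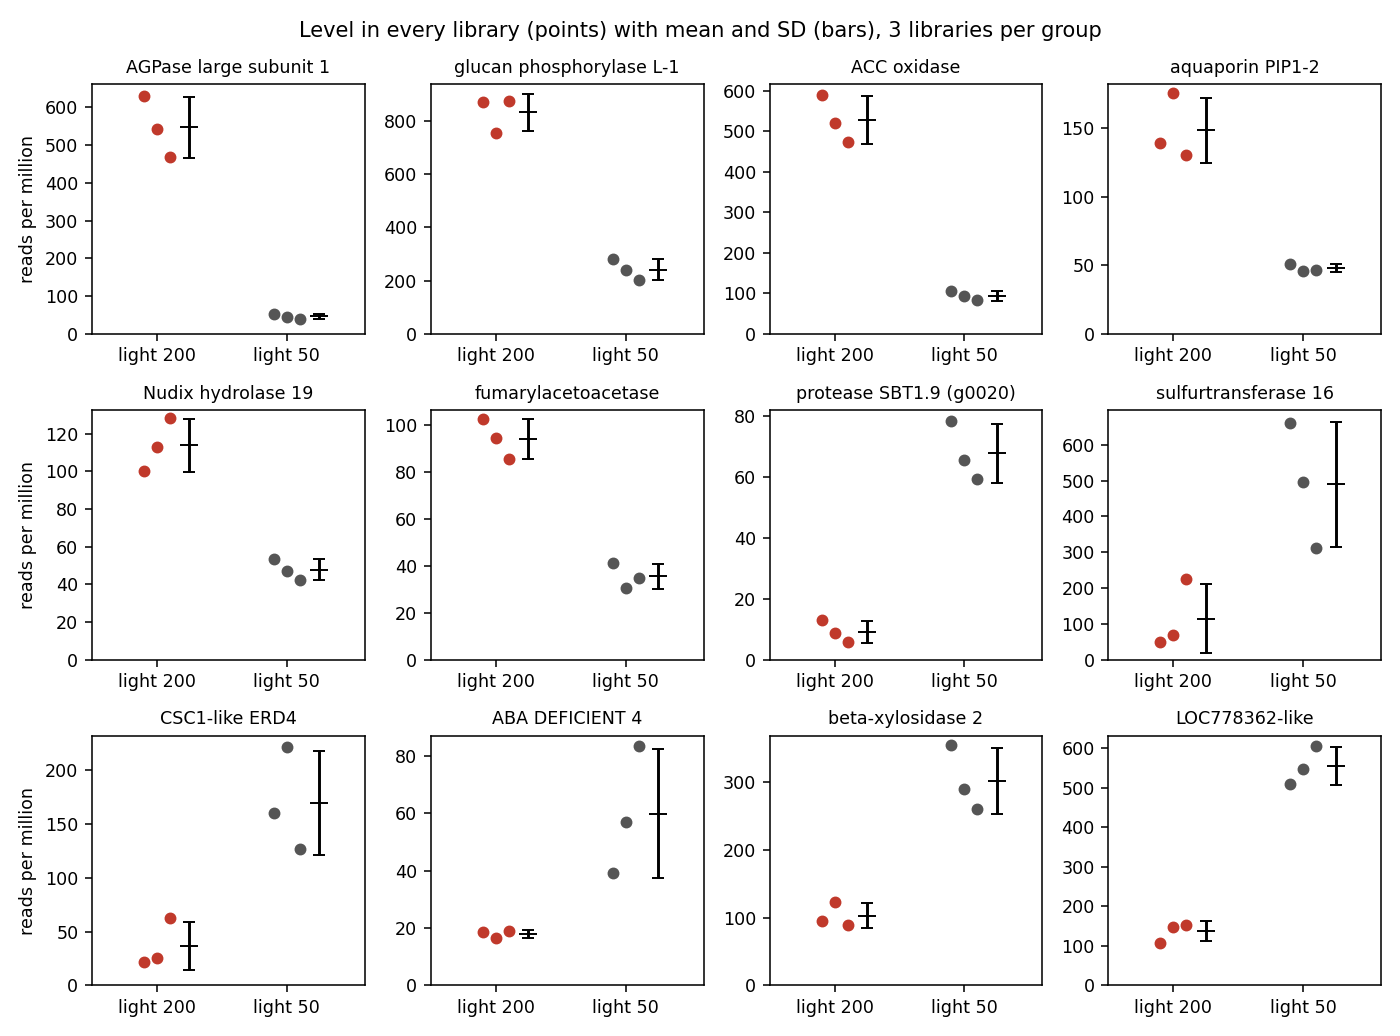
RPM in each of the 3 libraries at light 200 (red) and at light 50 (grey) for 12 genes outside photosynthesis and flavonoid synthesis, each axis starting at 0, with the mean and SD as bars. The groups do not overlap in any panel, and light 200 replicate 3 is the high red point for sulfurtransferase 16 and ERD4, at 225 and 62.2 RPM.

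Hormone and oxylipin genes moved in both directions, 4 higher and 3 lower. This split rests on genes moved between classes after their values were seen, since by name words alone the class held 6 genes, all higher, with the 3 that fell outside it. The gene Nitab4.5_0000091g0420, Nt14, 98536509 to 98538581, named for the ethylene-forming enzyme 1-aminocyclopropane-1-carboxylate oxidase, rose 5.61-fold. It had 589.8, 519.9 and 473 RPM at light 200, against 106, 93.5 and 82.3 at light 50. A tomato-named homolog of this enzyme (Nitab4.5_0002015g0090), which KEGG calls only a 2-oxoglutarate-dependent dioxygenase, had 81.9, 84.4 and 79.8 RPM at light 200, against 39.1, 23.3 and 23.3 at light 50. Linoleate 9S-lipoxygenase 5 (Nitab4.5_0000137g0100), which starts oxylipin synthesis, rose 2.003-fold. The last gene that rose is named GH3.10 (Nitab4.5_0002370g0050), an enzyme that joins hormones to amino acids. Its Swiss-Prot name and KEGG orthology group are those of auxin enzymes, but such names do not settle which hormone it acts on. The log2 change of this gene was 1.29 ± 0.34 (SE).

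Of the genes that fell in this class, 2 are named for steps toward abscisic acid, which is made from epoxidized carotenoids. Protein ABA DEFICIENT 4 (Nitab4.5_0000912g0240, Nt17, 208018906 to 208020123), needed for neoxanthin in Arabidopsis, fell 3.33-fold. Its libraries held 18.8, 16.4 and 18.9 RPM at light 200, against 39.3, 56.9 and 83.7 at light 50. The light 200 libraries lay within a narrow band and the light 50 libraries were widely spread, but the groups did not overlap. Xanthoxin dehydrogenase (Nitab4.5_0002812g0020), a later step, had 39.2, 42.3 and 31.9 RPM at light 200, against 67.2, 58.3 and 45.98 at light 50, and it was not called with TMM factors (adjusted p = 0.0676). Zeaxanthin epoxidase (Nitab4.5_0002016g0120), counted with photoprotection, is an earlier step and had a log2 change of -0.52 ± 0.10 (SE). It was not called with the median change set to 0 (adjusted p = 0.428). Geranylgeranyl pyrophosphate synthase (Nitab4.5_0000110g0240), which makes a carotenoid precursor further upstream, rose by 0.80 ± 0.17 (SE). The strigolactone esterase D14 entry (Nitab4.5_0002038g0020), which KEGG names for the related receptor KAI2, averaged 2.29 ± 0.534 RPM at light 200 and 6.17 ± 1.26 at light 50 (SD, n = 3 each).

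Photoprotection and peroxide genes were 1 up and 3 down. The early light-induced protein (Nitab4.5_0000977g0030), a chlorophyll-binding relative of the antenna made under light stress, had 125, 169 and 166 RPM at light 200, against 26.7, 25.1 and 24.3 at light 50. The gene Nitab4.5_0000407g0130 for catalase isozyme 1, a peroxisomal enzyme that breaks down hydrogen peroxide, had 1199.8, 1221 and 1671 RPM at light 200, against 3723, 3319 and 2827 at light 50. The thioredoxin-like protein CXXS1 (Nitab4.5_0002345g0090) fell 2.07-fold. The libraries gave 26.6, 41.8 and 56.8 RPM at light 200, against 70.02, 97.3 and 92.2 at light 50. Its highest library at light 200 was below its lowest at light 50.

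Proteases and folding enzymes fell in 5 of 6 genes, against 52.0% of the table called lower. The summed reads of the class overlapped between the groups. They were 338, 369 and 304 RPM at light 200, against 359, 323 and 424 at light 50. Both genes named subtilisin-like protease SBT1.9, secreted proteases by family, lie 31181 bases apart on Nt22 and changed by different amounts. The stronger one (Nitab4.5_0002388g0020, Nt22, 90722090 to 90724390) had the largest fall of the table. Its level was 13.05, 8.63 and 5.79 RPM at light 200, against 78.2, 65.6 and 59.1 at light 50. Its neighbour (Nitab4.5_0002388g0010, Nt22, 90755571 to 90757916) averaged 10.6 ± 0.711 RPM at light 200 and 25.1 ± 4.12 at light 50 (SD, n = 3 each). Per length, the stronger one stood at 3.98 FPKM at light 200, close to its neighbour's 4.502 FPKM, against 29.4 and 10.7 FPKM at light 50. The immunophilin FKBP17-2 (Nitab4.5_0008639g0010), of the chloroplast, fell 3.52-fold. CYP38 (Nitab4.5_0003337g0100), which helps to assemble photosystem II in Arabidopsis, had a log2 change of -0.44 ± 0.16 (SE) and was not called with TMM factors (adjusted p = 0.315). Leaving out light 200 replicate 1 or light 50 replicate 3 also ended the call, with adjusted p of 0.0552 and 0.0774. The member that rose was the aspartyl protease AED3 (Nitab4.5_0003481g0010). Its values were 156, 172 and 120.0 RPM at light 200, against 29.4, 28.1 and 71.5 at light 50.

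Cell wall and cytoskeleton genes split evenly, 4 higher and 4 lower, with a median log2 change of -0.38, and the 4 that rose are glycosidases by name. By name words alone, before genes were moved with their values seen, the class held 3 higher and 4 lower with a median of -1.54. Both genes named beta-glucosidase BoGH3B after a bacterial enzyme were among them (Nitab4.5_0001505g0020 and Nitab4.5_0000010g0130), with log2 changes of 1.54 ± 0.13 (SE) and 0.89 ± 0.14 (SE). The others were alpha-glucosidase 2 (Nitab4.5_0000030g0360), named from a bacterium, which rose 1.94-fold, and glucan endo-1,3-beta-glucosidase (Nitab4.5_0001170g0190), which rose 1.72-fold. Among those that fell, beta-xylosidase/alpha-L-arabinofuranosidase 2 (Nitab4.5_0003089g0010, Nt07, 28866305 to 28871027), which acts on wall xylans and arabinans, is a glycosidase too. It had 95.5, 124 and 89.6 RPM at light 200, against 355, 290.2 and 259.5 at light 50. The tubulin beta-1 chain (Nitab4.5_0001951g0080), a microtubule subunit, had 32.02, 39.7 and 31.2 RPM at light 200, against 116, 109 and 76.7 at light 50. An extensin-2 entry (Nitab4.5_0001049g0140), for a wall glycoprotein, and a polygalacturonase inhibitor (Nitab4.5_0005395g0010), which blocks enzymes of fungi that digest pectin, fell 2.898-fold and 3.59-fold. Since the class median also changed sign, to 0.05, with the median change set to 0, no direction is given for the class.

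Lipid genes were few, 2 higher and 1 lower, against 0 higher and 2 lower by name words alone, so no direction is given for the class. A non-specific lipid-transfer protein (Nitab4.5_0000125g0030), of a family common in the epidermis, had 14.05, 18.4 and 17.99 RPM at light 200, against 60.4, 46.9 and 39.6 at light 50. Beta-glucosidase-like SFR2 (Nitab4.5_0003135g0010), which remodels chloroplast galactolipids in Arabidopsis, and acetyl-CoA carboxylase 1 (Nitab4.5_0000469g0180), whose product malonyl-CoA feeds both fatty acid and flavonoid synthesis, rose 2.22-fold and 1.72-fold. The epidermis-specific secreted glycoprotein EP1 (Nitab4.5_0000246g0290) fell 2.39-fold.

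Signalling and regulatory genes changed little in size, and 5 of 6 fell (4 of 6 by name words alone), against 52.0% of the table. The 2 genes named SIS8 (Nitab4.5_0004028g0050 and Nitab4.5_0001986g0060), protein kinases, had log2 changes of -0.60 ± 0.14 (SE) and -0.59 ± 0.15 (SE), and neither was called with TMM factors (adjusted p = 0.0656 and 0.0769). STY17 (Nitab4.5_0001696g0100), a kinase, and purple acid phosphatase 26 (Nitab4.5_0002267g0060) had changes of -0.46 ± 0.12 (SE) and -0.43 ± 0.13 (SE), which TMM factors also left uncalled (adjusted p = 0.213 and 0.268). The coactivator multiprotein-bridging factor 1b (Nitab4.5_0000383g0170) fell 1.698-fold and was not called with the median change set to 0 (adjusted p = 0.0812). Transcription factor UNE12 (Nitab4.5_0000187g0130) was the member that rose, and its libraries were close together in both groups. Its libraries held 56.9, 56.9 and 56.8 RPM at light 200, against 31.7, 33.5 and 31.5 at light 50.

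In the class formed on words of stress and defence, which also took in the TLD domain and DRT100, 2 of 3 genes fell. The entry for TLD domain-containing protein 1 (Nitab4.5_0001988g0020, Nt12, 117120265 to 117126432), named from zebrafish, had the largest fall of the table after SBT1.9, 5.23-fold lower. The libraries gave 26.9, 31.7 and 33.1 RPM at light 200, against 179, 183 and 117 at light 50. A stress-induced protein KIN2-like gene (Nitab4.5_0003384g0010) had 3.06, 6.31 and 3.11 RPM at light 200, against 13.4, 17.4 and 22.02 at light 50, from at most 329 reads in a library.

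Other genes had products outside these classes. A gene that KEGG leaves uncharacterized as LOC778362 (Nitab4.5_0000527g0200, Nt24, 30964364 to 30965360) fell 4.06-fold, to 345 FPKM at light 200, against 1401 FPKM at light 50. Its level was 108, 149 and 153 RPM at light 200, against 511, 548 and 607 at light 50. The gene Nitab4.5_0001474g0070, named for an MLP-like protein of the major latex protein family, had 91.8, 134 and 89.8 RPM at light 200, against 19.04, 19.6 and 56.3 at light 50. Without light 50 replicate 3, its high library, the log2 change was 2.44 in place of 1.73. Fumarylacetoacetase (Nitab4.5_0001198g0060), the last enzyme of tyrosine breakdown, rose 2.65-fold, and 3-hydroxyisobutyryl-CoA hydrolase-like protein 5 (Nitab4.5_0001232g0070), of a valine breakdown family, rose 1.77-fold. Cytochrome c (Nitab4.5_0000903g0070), the mobile carrier of the respiratory chain, averaged 89.96 ± 1.68 RPM at light 200 and 43.7 ± 9.95 at light 50 (SD, n = 3 each). The putative G3BP-like protein (Nitab4.5_0000355g0030) and AFG1-like ATPase (Nitab4.5_0000109g0260) rose 1.703-fold and 2.05-fold.

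Berberine bridge enzyme-like 8 (Nitab4.5_0000009g0310), an oxidase of a family that includes enzymes of alkaloid synthesis, had the lowest FPKM at light 50 in the table, 0.482. Its values were 7.79, 4.14 and 5.73 RPM at light 200, against 1.21, 0.585 and 0.8702 at light 50. These levels rest on 59 to 117 reads per library at light 200 and 9 to 15 at light 50. Tetraspanin-3 (Nitab4.5_0000888g0160) had a log2 change of -0.56 ± 0.15 (SE) and was not called with TMM factors (adjusted p = 0.103). An alpha/beta-hydrolase (Nitab4.5_0001725g0120) had 9.32, 7.93 and 21.7 RPM at light 200, against 27.2, 26.8 and 24.03 at light 50, and its call was lost with TMM factors (adjusted p = 0.122) or with the median change set to 0 (adjusted p = 0.170). Leaving out light 200 replicate 1 or 2 also ended it, at adjusted p of 0.0684 and 0.0742. Without light 200 replicate 3, its high library, the log2 change was -1.59 in place of -0.999. Of the 4 remaining uncharacterized genes, LOC101260668 (Nitab4.5_0000578g0110) rose 2.91-fold and LOC101257023 (Nitab4.5_0000980g0350) 1.75-fold, and LOC101252852 (Nitab4.5_0002540g0040) and LOC101253079 (Nitab4.5_0000083g0050) had log2 changes of -0.60 ± 0.16 (SE) and -0.50 ± 0.11 (SE) that TMM factors left uncalled (adjusted p = 0.115 and 0.0544).

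In photosynthesis and flavonoid synthesis the genes are given here by how the members differ. Within the 9 antenna genes, 2 stood apart. Chlorophyll a-b binding proteins 16 (Nitab4.5_0000982g0200) and P4 (Nitab4.5_0007189g0010) fell 3.61-fold and 3.28-fold, whereas the other 7 had log2 changes between -0.98 and -0.65. These 2 were also the least abundant of the class at light 200, at 182 and 448 FPKM. Photosystem I subunits fell by log2 changes from -1.19 to -0.65. Subunit XI (Nitab4.5_0001348g0130) was not called with the median change set to 0 (adjusted p = 0.0543). Photosystem II genes fell by changes from -0.86 to -0.35. The lowest of these is the D2 protein entry (Nitab4.5_0000220g0160, on Nt19), whose product is normally encoded in the plastid, so its reads cannot be placed with certainty. It was not called with the median change set to 0 (adjusted p = 0.125). The 10 kDa polypeptide of photosystem II (Nitab4.5_0000313g0040) and oxygen-evolving enhancer protein 2-2 (Nitab4.5_0005601g0020) changed direction, to 0.01 and 0.08, with the median change set to 0. Oxygen-evolving enhancer proteins 1 (Nitab4.5_0000108g0110) and 3 (Nitab4.5_0002345g0070) were not called under that scaling either (adjusted p = 0.699 and 0.0600), so none of the 5 photosystem II genes kept its fall there, and the class median was -0.05 in place of -0.47. Oxygen-evolving enhancer 2-2 was also not called with TMM factors (adjusted p = 0.401) or RLE factors (adjusted p = 0.0865).

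Other plastid proteins, a class made after values were seen, fell in all 5 genes, with a median log2 change of -0.85. This is not a result for plastid genes as a whole. Of the 58 genes that rose, 12 have names containing chloroplastic, and they stand in other classes. CURVATURE THYLAKOID 1B (Nitab4.5_0002053g0100), which bends the margins of thylakoid stacks, had 852, 832 and 699 RPM at light 200, against 1606, 1393 and 1388 at light 50. Calvin cycle protein CP12-3 (Nitab4.5_0009514g0050), of a family that holds Calvin cycle enzymes inactive in the dark, fell 2.096-fold. The thylakoid lumenal 19 kDa protein (Nitab4.5_0000634g0080) fell 1.805-fold. Plastid transcriptionally active 16 (Nitab4.5_0000102g0310) and plastid-lipid-associated protein 8 (Nitab4.5_0003259g0070) both had log2 changes of -0.58 and were not called with the median change set to 0 (adjusted p = 0.263 and 0.277).

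All 8 phenylpropanoid and flavonoid genes (7 of 7 by name words alone) and all 7 transferases rose, with median log2 changes of 2.41 and 2.19. Higher calls made up 47.2% of the whole table. Chalcone--flavonone isomerase 3 (Nitab4.5_0000375g0270), of the fold that closes the flavonoid ring, rose 17.5-fold, while the tobacco chalcone--flavonone isomerase entry (Nitab4.5_0000027g0470) rose 6.197-fold. Feruloyl CoA ortho-hydroxylase 1 (Nitab4.5_0002567g0090, Nt18, 31904946 to 31907518), on the branch to coumarins such as scopoletin and not to flavonoids, had the smallest rise of the class. It had 25.4, 29.7 and 31.9 RPM at light 200, against 11.9, 10.7 and 8.43 at light 50. Flavone 3'-O-methyltransferase 1 (Nitab4.5_0000725g0060), which KEGG names as a caffeic acid methyltransferase, rose 3.01-fold. Among transferases, UDP-glycosyltransferase 86A1 (Nitab4.5_0003524g0010) had the largest fold change of the table, 34.7, on 324 to 533 reads per library at light 200 and 8 to 15 at light 50. The putative UDP-rhamnose:rhamnosyltransferase 1 (Nitab4.5_0000200g0190), which adds rhamnose, had the most reads of the class. Its libraries held 732, 630.1 and 416 RPM at light 200, against 152, 121 and 248 at light 50.

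Genes that share a product name allow a comparison within a family. In all 8 such sets the members moved in the same direction, but their reads may be shared. The 2 phenylalanine ammonia-lyases (Nitab4.5_0000101g0270 and Nitab4.5_0000754g0260), which open the phenylpropanoid pathway, had log2 changes of 2.19 ± 0.17 (SE) and 1.63 ± 0.17 (SE). The 2 UDP-glycosyltransferases 74E2 (Nitab4.5_0001704g0090 and Nitab4.5_0002356g0020) had changes of 1.47 ± 0.25 (SE) and 1.43 ± 0.19 (SE), although the first was at 337 FPKM and the second at 25.8 FPKM at light 200. The 3 protochlorophyllide reductases, which carry out the light-dependent step of chlorophyll synthesis, differed in size. The one on Nt01 (Nitab4.5_0001320g0160) fell 3.55-fold, the one on Nt02 (Nitab4.5_0000512g0200) 1.72-fold and the one on Nt10 (Nitab4.5_0002526g0100) 1.37-fold, the last without a call under TMM factors (adjusted p = 0.213), RLE factors (adjusted p = 0.0698) or without light 50 replicate 3 (adjusted p = 0.0534). Differences between members of a set were not tested.

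**Figure D3:**
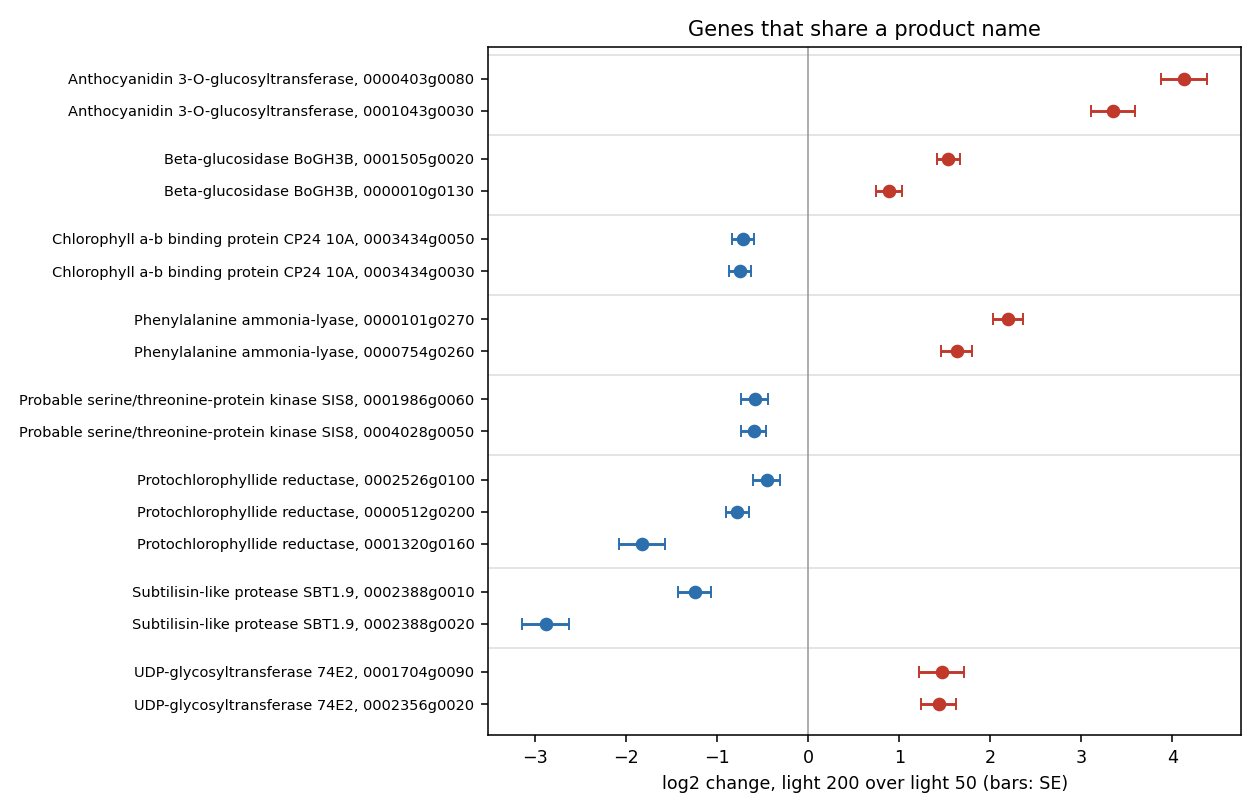
Log2 change at light 200 over light 50 (horizontal axis) with its SE for the genes of 8 sets that share a product name, each row 1 gene. Members lie on the same side of 0 in each set. The SBT1.9 pair, at -2.89 and -1.25, and the protochlorophyllide reductases, at -1.83 to -0.46, differ most, and the 2 CP24 antenna genes, at -0.75 and -0.71, lie together.

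Counted in reads and not in folds, most of the loss lay in the antenna and photosystems. The genes of the table held 5.31%, 5.33% and 4.63% of library reads at light 200, against 7.37%, 6.60% and 7.18% at light 50. The groups did not overlap. No p is given for this share, since nearly all its genes were already marked as changed in the same comparison. The 64 genes with fewer reads at light 200 fell by 26571 RPM in all and the 59 with more reads gained 6968 RPM. Antenna and photosystem genes, 19 in number, accounted for 77.1% of the loss. The CP29.2 antenna gene (Nitab4.5_0000335g0220) alone, at 5639.9 RPM at light 200 and 8823 at light 50, made up 11.98%. Catalase isozyme 1 accounted for 7.25% of the loss, the most of any gene outside photosynthesis.

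The gain was spread more widely. The 15 phenylpropanoid, flavonoid and transferase genes made up 41.3% of it. The glucan phosphorylase contributed 8.500%, the adenylyltransferase 7.19%, the phenylalanine ammonia-lyase on Nt24 6.78% and the aminocyclopropanecarboxylate oxidase 6.22%. Starch and sugar genes together held 1747 ± 149 RPM at light 200 and 388 ± 51.9 at light 50 (SD, n = 3 each). The phenylpropanoid and flavonoid class held 2400.3 ± 334 at light 200 and 514 ± 53.4 at light 50, and the antenna class 16944 ± 1848 at light 200 and 29355 ± 2779 at light 50.

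**Figure D4:**
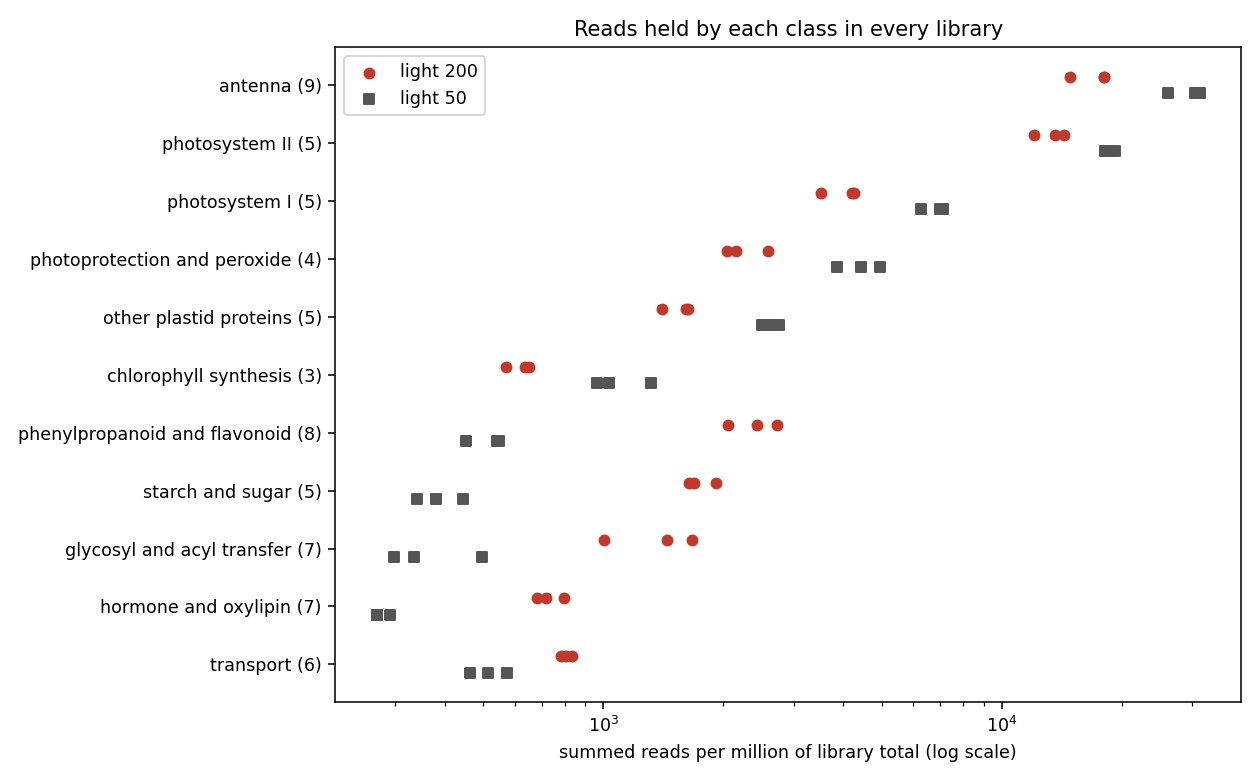
Summed RPM (horizontal axis, log scale) held by the genes of 11 classes in each of the 3 libraries at light 200 (red circles) and at light 50 (grey squares), with the number of genes in brackets. The classes shown are a choice from 20. No class shown has overlapping groups, but among those left out the wall and cytoskeleton class and the protease and folding class do. Antenna genes sum to 14810 to 18021 at light 200, and starch and sugar genes to 1637 to 1917.

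The libraries of each group lay close together along the whole contrast. The mean log2 level of the genes that rose minus that of the genes that fell, a difference that no scaling of a library can move, was 0.11, -0.06 and -0.13 at light 200, against -2.71, -2.89 and -2.70 at light 50. Its direction is fixed by the choice of genes, so it is given as a description. At light 100 it was -1.21, -0.99 and -1.28, between the 2 groups. The light 100 mean lay between the other means for 57 of the 58 genes that rose and 63 of the 64 that fell. The exceptions were the aminocyclopropanecarboxylate oxidase homolog, at 91.4 RPM at light 100, and the plastid cysteine synthase, at 352. In genes already marked as changed between light 50 and light 200, a light 100 mean between them is favoured by that choice. The light 100 values are therefore also a description, and a graded response to light was not tested.

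The split between directions depended on how libraries were scaled. With TMM factors 59 genes were higher and 48 lower, with RLE factors 59 and 60, and with the median change set to 0, which assumes as many rises as falls, 59 and 37. Against library totals these raised the median log2 change by 0.28, 0.14 and 0.43, and the authors' size factors lowered it by 0.16 with 58 higher and 64 lower. All 58 genes that rose were called higher under each of these scalings, and every call that was lost was of a gene that fell. With the median change set to 0, 24 genes lost their call and 3 changed direction. The CP29.2 antenna gene was among the 24 (adjusted p = 0.0543).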

How the data were processed

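RNA was sequenced from 9 leaf libraries, 3 at each of 3 light intensities. Read counts per gene were deposited by the authors beside FPKM values, mean normalised counts (a score on a scale of its own in each comparison), log2 fold changes, p-values and gene lengths, per the file headers. CASAVA 1.7, HISAT and HTSeq appear in the submitters' processing notes, which name no genome build. Gene positions are those of the deposited table. Totals per library were computed from count, FPKM and length, which gave the same total for every gene of a library. edgeR 4.0.16 (R 4.3.3) fitted a quasi-likelihood model to the counts of all 9 libraries with light as a factor and these totals as library sizes, leaving 6 residual degrees of freedom. P-values were adjusted by Benjamini-Hochberg over all 123 genes, with calls at 0.05, and the SE is the log2 change over the square root of F. The fit was also run on simulated counts with rises and falls in equal number and many genes unchanged, unlike this table. Scaling was not varied there, so that run says nothing on how calls depend on it. DESeq2 1.42.0 and other scalings, filters and subsets were alternatives.

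Genes were classed by words in their product names, and 18 were moved to another class after names and values had been seen, which changed the counts of several classes as given with them. The genes, classes and lists were chosen with earlier results of these data known. A rule on size and level named 67 genes, and the others named were chosen after their values were seen. No gene ID matched the reference gene table (0 of 123), so no sequence is given.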

Additional observations from a re-analysis of the deposited data

How the results depend on the processing

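The count of genes higher at light 200 was 57 to 59 under every alternative run. The count lower was 64 with the authors' size factors, DESeq2, edgeR's own filter or only the 6 libraries compared, 61 of 119 genes with a minimum mean of 5 RPM, 60 with RLE factors, 48 with TMM factors and 37 with the median change set to 0. Scaling to that median assumes balanced changes, and it changed the direction of the photosystem II 10 kDa polypeptide (0.00731), purple acid phosphatase 26 (0.00016), oxygen-evolving enhancer 2-2 (0.0759) and the median of the wall and cytoskeleton class (0.0511). Leaving out 1 library at a time gave 58 to 59 genes higher and 61 to 64 lower, and the difference in the share of reads held by the genes of the table ran from -2.18 to -1.73 percentage points. With the authors' size factors that difference was -2.61.

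The replicate numbers gave no sign of a pairing. Deviations of same-numbered light 200 and light 50 libraries correlated at 0.127, -0.119 and -0.234 across genes, and those of different-numbered libraries at -0.309 to 0.310. With 3 libraries per group this cannot exclude a pairing. A fit with the replicate number as a block gave 58 higher and 64 lower and changed no call. Depth limits the berberine bridge enzyme-like 8 and UDP-glycosyltransferase 86A1 genes, with 15 reads or fewer per light 50 library. The counts were tested only within a table of genes nearly all already marked as changed.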
